A study of Mus musculus with 12 samples.

Results

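The 12 libraries of this series come from the terminal ileum of mice and fall into 2 sets by the abundance of Reg3b, a secreted lectin that kills bacteria. In the 6 libraries called high here, Reg3b took over 4 percent of all counted reads, and in the 6 called low it took under 2 percent. The high set holds 3 Rag1-/- mice and 3 Tcra-/- mice that shared a cage with wild type mice, and the low set holds 3 wild type C57BL/6 mice and 3 separately housed Tcra-/- mice. Rag1-/- mice lack the recombinase that assembles antigen receptor genes, so they make neither T nor B cells, and Tcra-/- mice lack the alpha chain of the T cell receptor and with it the common T cell lineage. All 3 strains came from Taconic and were kept free of specified pathogens. The description on the co-housed libraries tells of male wild type mice of the same age that were caged with as many knockout mice for 4 to 8 weeks. The sources used here do not give the ages and sexes of the other groups or the cage of each mouse. They also do not say whether the sequenced wild type mice had cage mates of another genotype. The level of Xist, given below, bears on sex. The tests measure the spread among mice, and cage mates do not stand for separate cages. Both knockouts lack the gene in every cell, and RNA came from whole tissue, so fewer cells of a type and less RNA per cell cannot be told apart.

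The sets were chosen by the share of counts that Reg3b took, so its values are a description. It took 5.82, 5.54 and 5.69% of counts in the Rag1-/- mice, 5.18, 4.95 and 6.04% in the co-housed Tcra-/- mice, 1.15, 0.905 and 1.77% in the wild type mice and 0.662, 0.260 and 0.310% in the separately housed Tcra-/- mice. The member nearest the limit from above was co-housed mouse TCRaCox3156 at 4.95%, and the nearest from below was wild type mouse WTB6x3167 at 1.77%. The Reg genes together took 7.95 to 10.2% of counts in the high mice and 0.421 to 2.68% in the low mice. Values below are CPM, counts relative to a library size scaled by the trimmed mean of M-values. The account that follows is of the other genes, and asks which of them differed both between Rag1-/- and wild type mice and between co-housed and separately housed Tcra-/- mice, the comparisons that the study's design names. They share no library, but all 12 libraries were fitted together, so the tests of both rest on 1 shared estimate of the spread. Leaving out a mouse of 1 comparison can thus change a call in the other. They are called the Rag1-/- comparison and the housing comparison below.

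The ileal epithelium is a single layer in which absorptive enterocytes take up sugars, amino acids, fats and bile acids, and secretory cells release mucus, antimicrobial proteins and hormones. Interleukin 22, made mainly by innate lymphoid cells and some T cells, binds a receptor on epithelial cells and activates the transcription factor STAT3. Known targets of that pathway in the gut include the Reg3 lectins, serum amyloid A proteins, the feedback inhibitor Socs3 and the fucosyltransferase Fut2, which adds fucose to surface glycans that bacteria can use. Enterocytes in turn carry digestive enzymes such as lactase on their brush border, with genes controlled by the HNF4, GATA and CDX factors.

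The promoters of 3 genes that were high with Reg3b or are Reg3b itself, and of 2 that were low, are shown because the motifs of STAT, GATA and HNF4 factors can be read in them. Each is the RefSeq window of 300 bases, 250 before the start of transcription to 50 after it, 5′ to 3′ on the gene's strand, with motif matches in capitals. The motif TTCNNNGAA (STAT) is in the first 3 windows, AGATAA, bound by the GATA factors, on both strands in that of Lct, the gene of lactase, and CAAAGTCCA (HNF4) in that of Cyp3a11, a drug-oxidizing cytochrome P450. B3galt5 has 3 listed starts. The first is shown, and the windows of the other starts hold no STAT match. The windows were picked for their matches: those of Lrg1, Ppef1, Trim10, Reg3a and Reg3g hold no STAT match, and those of Slc2a2, Slc5a4a, Acot12 and Cyp2d26 none of the motifs searched.
Reg3b, GRCm38.p6 chr6:78370635-78370934, plus strand: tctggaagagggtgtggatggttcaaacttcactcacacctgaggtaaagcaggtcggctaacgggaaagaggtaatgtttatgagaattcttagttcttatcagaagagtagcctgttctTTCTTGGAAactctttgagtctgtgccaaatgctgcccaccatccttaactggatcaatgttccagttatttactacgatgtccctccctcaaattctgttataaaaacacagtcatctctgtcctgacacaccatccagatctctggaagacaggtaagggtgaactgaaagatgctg
Socs3, GRCm38.p6 chr11:117969317-117969616, minus strand: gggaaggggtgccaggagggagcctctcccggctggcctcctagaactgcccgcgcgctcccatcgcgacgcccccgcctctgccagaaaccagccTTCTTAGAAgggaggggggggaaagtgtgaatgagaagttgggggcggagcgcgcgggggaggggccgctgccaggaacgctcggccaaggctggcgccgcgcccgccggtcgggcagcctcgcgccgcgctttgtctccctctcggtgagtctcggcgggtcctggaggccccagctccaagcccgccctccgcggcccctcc
B3galt5, GRCm38.p6 chr16:96235551-96235850, plus strand: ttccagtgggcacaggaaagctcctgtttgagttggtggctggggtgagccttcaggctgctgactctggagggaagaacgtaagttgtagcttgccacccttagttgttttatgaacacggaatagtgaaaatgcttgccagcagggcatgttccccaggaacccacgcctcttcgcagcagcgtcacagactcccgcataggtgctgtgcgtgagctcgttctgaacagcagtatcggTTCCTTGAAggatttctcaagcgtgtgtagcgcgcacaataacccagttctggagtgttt
Lct, GRCm38.p6 chr1:128328269-128328568, minus strand: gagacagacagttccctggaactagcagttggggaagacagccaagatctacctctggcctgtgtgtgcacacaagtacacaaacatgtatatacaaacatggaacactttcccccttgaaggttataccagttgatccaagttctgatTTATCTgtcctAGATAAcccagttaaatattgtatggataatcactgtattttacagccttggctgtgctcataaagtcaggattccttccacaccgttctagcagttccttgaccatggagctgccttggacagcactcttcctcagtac
Cyp3a11, GRCm38.p6 chr5:145879805-145880104, minus strand: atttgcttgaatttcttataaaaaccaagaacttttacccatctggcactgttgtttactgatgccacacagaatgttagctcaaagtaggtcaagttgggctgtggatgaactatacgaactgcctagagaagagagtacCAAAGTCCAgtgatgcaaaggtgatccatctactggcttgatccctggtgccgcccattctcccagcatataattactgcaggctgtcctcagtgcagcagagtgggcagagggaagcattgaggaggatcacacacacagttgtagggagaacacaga

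The STAT match TTCTTGGAA begins at base 122 of the Reg3b window, TTCTTAGAA at base 97 of the Socs3 window and TTCCTTGAA at base 241 of the B3galt5 window. In the Lct window TTATCT begins at base 150 and AGATAA at base 161, and in the Cyp3a11 window CAAAGTCCA begins at base 142. Of the 15866 genes tested, 12287 matched the promoter table by symbol. The STAT motif, read on both strands, was in 9.23% of 1159 windows of genes called higher in both comparisons, in 4.71% of 997 windows of genes called lower in both and in 7.04% of 15567 windows of all genes tested. It was in 8.3% of all 32851 windows of the table. The HNF4 motif was in 0.518, 1.6, 0.482 and 0.475% of these windows, and the GATA motif in 7.16, 7.82, 7.16 and 11.2%. An interferon response motif, GAAANNGAA, was in 8.8, 5.62, 7.32 and 8.56%, and 116 windows held both it and the STAT motif. These shares are a description without a test, and a match is not a bound site.

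Library totals ran from 37061276 to 50581616 counts over 23284 genes. Xist, the RNA that female cells make from their inactive X chromosome, was low in every library. It ran from 0.0664 CPM in RAG1x3164 to 0.875 CPM in TCRaSepxT4, relative to the unscaled total. This is the pattern of male mice in each group. Rag1 had 75, 69 and 92 reads in the 3 Rag1-/- mice and none in the other 9, so its reads do not check the label, and the sources used here do not give the deleted part. Markers of ileal absorptive cells were present in each library: Fabp6, the ileal bile acid binding protein, was at 2688 to 4018 CPM in the 6 high mice and 3079 to 4109 CPM in the 6 low mice, and Slc10a2, the ileal bile acid transporter, at 207 to 312 CPM in the 6 high mice and 170.4 to 234 CPM in the 6 low mice. Neither was called in either comparison. Epcam and Vil1, general epithelial markers, were called lower in both comparisons. The log2 fold changes in the Rag1-/- and the housing comparison were -0.36 and -0.36 for Epcam, and -0.37 and -0.37 for Vil1. Each Rag1-/- call was lost without 1 of several mice, among them RAG1x3163 (adjusted p = 0.0218 for Epcam and 0.0197 for Vil1 in the Rag1-/- comparison). Exons of Vil1 overlap those of Usp37.

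A large set of genes differed the same way in both comparisons. At an adjusted p under 0.01 in edgeR's quasi-likelihood test, 3314 of 15866 genes (20.9%) were called in the Rag1-/- comparison, 1494 higher (9.42%) and 1820 lower (11.5%). In the housing comparison 6156 (38.8%) were called, 3347 higher (21.1%) and 2809 lower (17.7%). Of all these, 1170 genes (7.37% of all tested) were higher in both, which is 78.3% of the Rag1-/- rises and 35.0% of the housing rises. Another 970 (6.11%) were lower in both, 53.3% of the Rag1-/- falls and 34.5% of the housing falls, and 364 (2.29%) were called in opposite directions. The change was over 2-fold in both comparisons for 237 of the rises and 244 of the falls. The median log2 fold change of the shared rises was 0.55 and 0.72 in the Rag1-/- and the housing comparison, and that of the shared falls was -0.67 and -1.04, against -0.02 and -0.01 over all genes tested. The mean of the high against that of the low groups, which the choice of sets used, passed for 39.9% of genes, 20.3% higher and 19.6% lower, and nothing is read from it.

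All 6 high mice lay above all 6 low mice for 1135 of the 1170 shared rises and below them for 936 of the 970 shared falls. Over all genes tested the 6 high mice were above for 2090 (13.2%) and below for 1710 (10.8%). The 12 largest shared rises and the 12 largest shared falls named below were picked among genes whose sets did not overlap. Non-overlap in those genes is part of that choice. All shared rises and falls were called from the same 12 mice, so their non-overlap is also shaped by how they were chosen. When each of the 12 mice was left out in turn, 684 of the rises (58.5%) and 566 of the falls (58.4%) were called in both comparisons in every one of these fits. Scaling by library size alone gave 713 higher and 3218 lower in the Rag1-/- comparison, 2480 and 3695 in the housing comparison, and 560 shared rises against 1949 shared falls. It moved the median of all genes to -0.19 and -0.12, and changes below are relative to the trimmed mean.

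**Figure D1:**
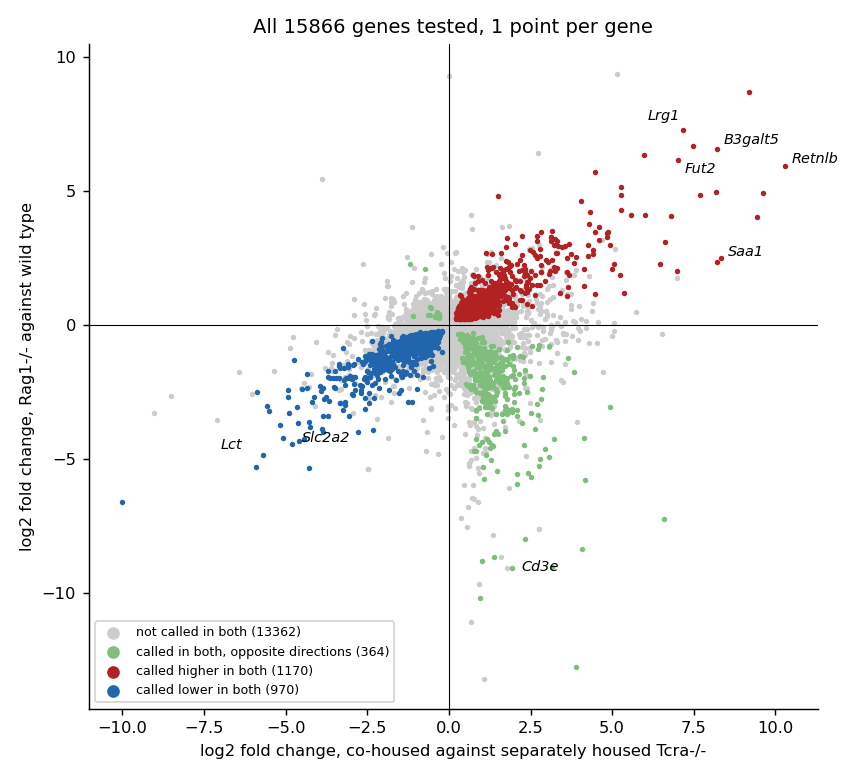
Fitted log2 fold change of each of the 15866 genes tested, co-housed against separately housed Tcra-/- on the x axis and Rag1-/- against wild type on the y axis, 1 point per gene, colored by the calls. The 1170 red and 970 blue genes lie along the rising diagonal, and the 364 green genes called in opposite directions lie mostly at the lower right.

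Many genes of the STAT3 and acute phase response were high in both high groups. Of 28 members of that list that were tested, 11 (39.3%) rose and 1 (3.57%) fell in both comparisons, with a list median of 0.55 in the Rag1-/- comparison and 1.02 in the housing comparison. Without wild type mouse WTB6x3159 or WTB6x3160 the count of rises was 7. The largest shared rise of the list, by the smaller of the 2 changes, was that of Lrg1 (mm9 chr17:56259101-56261369, minus strand), a secreted acute phase glycoprotein, at 175, 172 and 113 CPM in the Rag1-/- mice and 68.1, 60.5 and 198 CPM in the co-housed Tcra-/- mice. Lrg1 had 0.585, 0.974 and 1.39 CPM in the wild type mice and 1.32, 0.513 and 0.394 CPM in the separately housed Tcra-/- mice. All 6 high mice were above all 6 low mice, where the gene was nearly silent, and the highest and lowest high mice were both co-housed. Its log2 fold change was 7.28 ± 0.69 (adjusted p = 6.8e-05) in the Rag1-/- comparison and 7.19 ± 0.70 (adjusted p = 4e-05) in the housing comparison (± SE, 3 mice against 3, as in all fold changes below).

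Socs3, the inhibitor that STAT3 induces against its own signal, was at 333, 465 and 230.2 CPM in the Rag1-/- mice and 263, 265 and 290.3 CPM in the co-housed Tcra-/- mice. Socs3 had 35.8, 38.4 and 57.6 CPM in the wild type mice and 32, 19.3 and 28.5 CPM in the separately housed Tcra-/- mice. The high and low sets did not overlap, and the changes were 2.96 ± 0.31 (adjusted p = 8.7e-05) in the Rag1-/- comparison and 3.36 ± 0.31 (adjusted p = 2.1e-05) in the housing comparison. Tat, the tyrosine aminotransferase best known from liver, also rose in both comparisons. Cfi, the complement protease factor I, was at 25.7 to 52.2 CPM in the 6 high mice and 0.941 to 6.55 CPM in the 6 low mice (3.48 and 4.46). Lcn2, which binds bacterial siderophores, was low in all mice, at 5.56 to 7.72 CPM in the 6 high mice and 0.635 to 2.17 CPM in the 6 low mice, and rose by 2.24 and 2.31 on the log2 scale. Each of these calls held without any 1 mouse. Stat3 itself was called in the housing comparison, at 0.55 ± 0.09 (adjusted p = 9e-05), and not in the Rag1-/- comparison, at 0.30 ± 0.09 (adjusted p = 0.016), where it passed without TCRaSepxT4 (adjusted p = 0.00976).

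Saa1, a serum amyloid A protein, separated the groups more finely, at 989, 1102 and 1021 CPM in the Rag1-/- mice and 702, 524 and 1165 CPM in the co-housed Tcra-/- mice. Saa1 had 149, 142 and 261 CPM in the wild type mice and 4.34, 1.51 and 1.51 CPM in the separately housed Tcra-/- mice. The high groups overlapped, and all wild type mice were above all separately housed Tcra-/- mice. The log2 fold change was 2.50 ± 0.43 in the Rag1-/- comparison and 8.34 ± 0.58 in the housing comparison, and the difference of -5.84 passed the test (adjusted p = 0.00036). The Rag1-/- call of Saa1 was lost without WTB6x3159 or WTB6x3160 (adjusted p = 0.0137 and 0.0135). Reads of the near-identical Saa2 cannot be told apart with certainty. Il22, chosen for mention after its values were seen, was at 1.49, 2.32 and 1.17 CPM in the Rag1-/- mice and 2.08, 2.51 and 1.49 CPM in the co-housed Tcra-/- mice. Il22 had 0.135, 0.0906 and 0.0671 CPM in the wild type mice and 0, 0 and 0 CPM in the separately housed Tcra-/- mice. It rose in both comparisons, by 4.05 ± 0.43 (adjusted p = 6.8e-06) on the log2 scale in Rag1-/- mice, and it was at least 91.2-fold higher in co-housed than in separately housed Tcra-/- mice, where no read was counted (243 reads against 0, taken as 3 counts in the whole group). Il22ra1, the epithelial chain of its receptor, fell, with 136 to 193 CPM in the 6 high mice and 300.2 to 341 CPM in the 6 low mice (-0.78 and -1.03). All 6 high mice were below all 6 low mice.

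Enzymes that build surface and mucin glycans included Fut2 and B3galt5, both among the 12 largest shared rises. Of 28 members tested, 10 (35.7%) rose and 3 (10.7%) fell in both comparisons, and the rises numbered 9 to 12 under every alternative. Fut2 (mm9 chr7:52903965-52921678, minus strand) was at 467, 605 and 373 CPM in the Rag1-/- mice and 299.7, 237 and 471 CPM in the co-housed Tcra-/- mice. Fut2 had 4.61, 6.12 and 9.14 CPM in the wild type mice and 2.79, 3.35 and 1.71 CPM in the separately housed Tcra-/- mice. Every high mouse had at least 237 CPM and every low mouse at most 9.14, with changes of 6.18 ± 0.42 (adjusted p = 7e-06) in the Rag1-/- comparison and 7.01 ± 0.45 (adjusted p = 2.2e-06) in the housing comparison. B3galt5 (mm9 chr16:96457408-96541465, plus strand), which adds the galactose of type 1 glycan chains, was at 844, 1146 and 823 CPM in the Rag1-/- mice and 688, 702 and 753 CPM in the co-housed Tcra-/- mice. B3galt5 had 8.59, 8.79 and 12.3 CPM in the wild type mice and 3.31, 2.28 and 1.64 CPM in the separately housed Tcra-/- mice. The low groups also stood apart from each other here, and the changes were 6.57 ± 0.25 (adjusted p = 1.4e-08) in the Rag1-/- comparison and 8.21 ± 0.27 (adjusted p = 2.7e-09) in the housing comparison.

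Chst4, a sulfotransferase that adds sulfate to N-acetylglucosamine, was at 188, 217 and 201 CPM in the Rag1-/- mice and 180.0, 172 and 232 CPM in the co-housed Tcra-/- mice. Chst4 had 15, 19.2 and 19 CPM in the wild type mice and 22.8, 19.5 and 22.9 CPM in the separately housed Tcra-/- mice. The spread within each group was small, and the changes were 3.51 ± 0.13 (adjusted p = 4.5e-10) in the Rag1-/- comparison and 3.16 ± 0.13 (adjusted p = 3.4e-10) in the housing comparison. B3gnt7, which extends keratan sulfate and other chains, rose by 3.01 and 4.25 on the log2 scale, with 274 to 394 CPM in the 6 high mice and 16.3 to 45.1 CPM in the 6 low mice. Of the fucose supply genes, Gmds, the first enzyme of GDP-fucose synthesis, was at 567 to 692 CPM in the 6 high mice and 119 to 299.6 CPM in the 6 low mice (1.31 and 2.18), and the galactosyltransferase B4galt1 was at 356 to 508 CPM in the 6 high mice and 132 to 186 CPM in the 6 low mice (1.34 and 1.51). Both were picked for mention after their values were seen. The fucosyltransferase Fut4 and the GDP-fucose synthase Tsta3 were not called in either comparison, at log2 fold changes of 0.09 and 0.04 for Fut4, and 0.09 and -0.01 for Tsta3. The falls were B4galnt1, Gal3st2 and St3gal6 (-0.96 and -1.83).

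Of 19 other secreted antimicrobial proteins tested, 9 (47.4%) rose in both comparisons, none fell in both and 1, Pglyrp2, was called lower in the Rag1-/- and higher in the housing comparison. By comparison, 9 rose and 2 fell in Rag1-/- mice and 13 rose in co-housed mice, with a median of 1.07 in the Rag1-/- comparison and 1.44 in the housing comparison. Retnlb, the resistin-like molecule beta that goblet cells secrete, was at 78.2, 61.3 and 70.6 CPM in the Rag1-/- mice and 30.7, 37.8 and 53.9 CPM in the co-housed Tcra-/- mice. Retnlb had 0.742, 1.07 and 1.57 CPM in the wild type mice and 0, 0.0932 and 0 CPM in the separately housed Tcra-/- mice. It was close to silent in every low mouse, and only 4 reads were counted in the 3 separately housed mice. The changes were 5.96 ± 0.31 (adjusted p = 2.4e-07) in the Rag1-/- comparison and 10.28 ± 0.50 (adjusted p = 6.5e-08) in the housing comparison. Dmbt1, a bacteria-binding scavenger receptor, was at 7804, 7622 and 7721 CPM in the Rag1-/- mice and 5315, 6546 and 7528 CPM in the co-housed Tcra-/- mice. Dmbt1 had 810.0, 823 and 1699 CPM in the wild type mice and 394, 293 and 221 CPM in the separately housed Tcra-/- mice. All high mice were above all low mice (2.80 and 4.42), and wild type mouse WTB6x3167 was the highest of the low ones. Ltf, the iron-binding lactoferrin, was low throughout, at 5.48 to 9.08 CPM in the 6 high mice and 0.163 to 2.26 CPM in the 6 low mice. The Paneth cell lysozyme Lyz1 was not called in either comparison, at 0.15 and -0.09, and co-housed mice spanned 2595 to 10123 CPM. The summed level of neutrophil markers was 20.2 to 24.4 CPM in Rag1-/-, 22.3 to 24.1 in co-housed, 9.74 to 13.3 in wild type and 5.99 to 8.23 in separately housed mice. Of 7 tested, 1 was called higher in the Rag1-/- and 6 in the housing comparison. Only Ltf, which both lists hold, rose in both (2 genes without RAG1x3164, TCRaCox3157 or WTB6x3167). Ltf had 1106 reads in Rag1-/- and 878 in co-housed mice, a large part of the sum there. It had 230 in wild type and 29 in separately housed mice, where Mmp9 of the neutrophil list had 690 and 454. Mmp9 had 1033 in Rag1-/- and 1124 in co-housed mice. The lists share other genes too, among them S100a8 and S100a9, so the sum is not separate from the antimicrobial list. The part of neutrophils in the result was not tested.

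Of the enzymes that make or detoxify reactive oxygen and nitric oxide, 6 of 15 (40%) rose in both comparisons, and 3 did so without co-housed mouse TCRaCox3157 or wild type mouse WTB6x3159. Gpx2, the epithelial glutathione peroxidase, was at 1118, 1238 and 1165 CPM in the Rag1-/- mice and 1118, 995 and 1356 CPM in the co-housed Tcra-/- mice. Gpx2 had 301, 311 and 358 CPM in the wild type mice and 196, 218 and 139 CPM in the separately housed Tcra-/- mice. The sets did not overlap and the changes were 1.86 ± 0.15 (adjusted p = 1.1e-06) in the Rag1-/- comparison and 2.65 ± 0.16 (adjusted p = 2.9e-08) in the housing comparison. Duox2, the apical oxidase that makes hydrogen peroxide, was at 555 to 1002 CPM in the 6 high mice and 32.5 to 255 CPM in the 6 low mice. Its Rag1-/- call of 1.90 ± 0.43 (adjusted p = 0.0099) was lost when any 1 of 10 mice was left out, with adjusted p up to 0.0405 without WTB6x3160. Nos2, the inducible nitric oxide synthase, was at 607 to 971 CPM in the 6 high mice and 35.1 to 434 CPM in the 6 low mice. It rose by 1.08 ± 0.23 in the Rag1-/- and by 3.61 ± 0.26 in the housing comparison, the difference of -2.52 passed the test (adjusted p = 0.00046), and its Rag1-/- call was lost without any 1 of 6 mice (adjusted p up to 0.0278, without WTB6x3160).

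**Figure D2:**
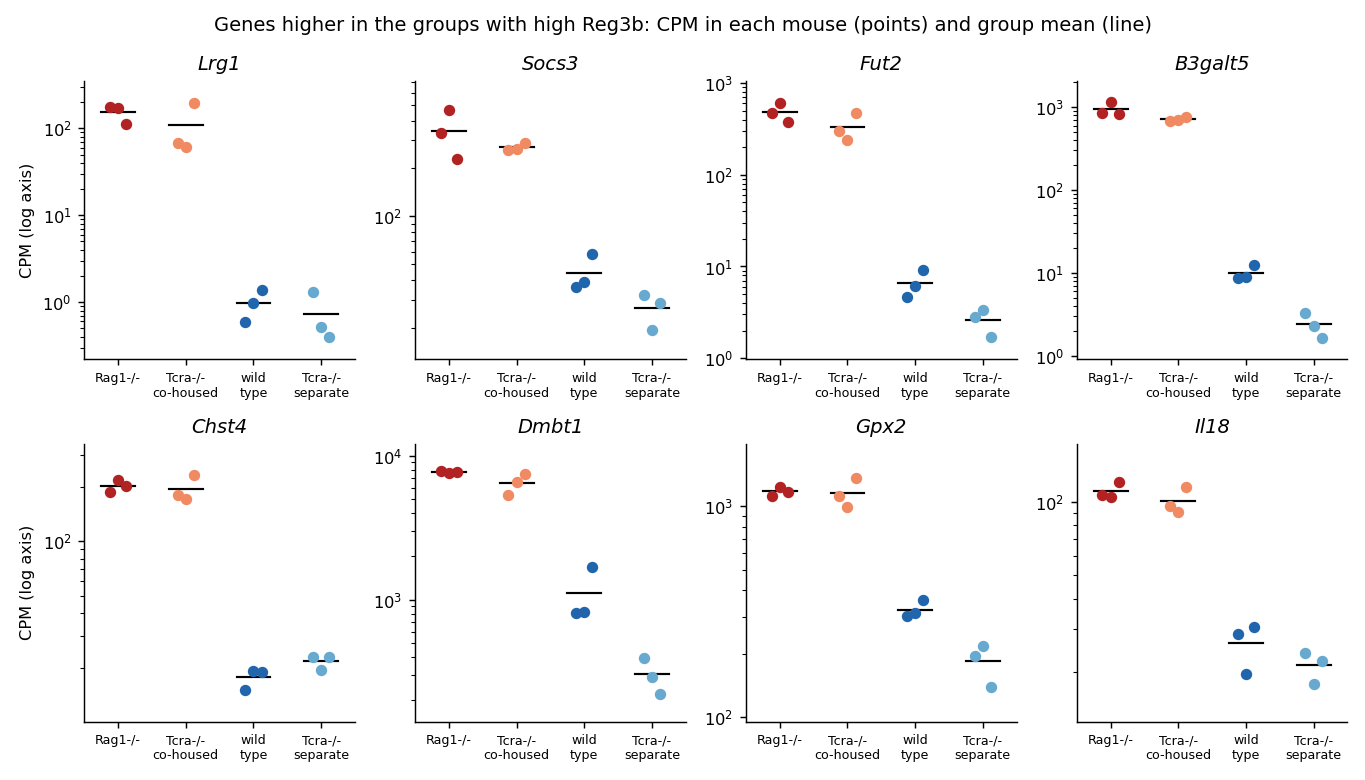
CPM on a log axis in each of the 12 mice (points) and the group mean (line) for 8 genes that were higher in the high groups. In each panel all 6 Rag1-/- and co-housed Tcra-/- mice lie above all 6 wild type and separately housed Tcra-/- mice, with Fut2 at 237 to 605 CPM in the 6 high mice and 1.71 to 9.14 CPM in the 6 low mice. For Lrg1, Fut2 and B3galt5 this was a condition of their choice.

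Epithelial cytokines did not move as 1 set. Of 21 tested, 3 (14.3%) rose and 2 (9.52%) fell in both comparisons, beside 7.37% and 6.11% of all genes tested. Without TCRaCox3156, TCRaCox3157, TCRaSepxT2 or TCRaSepxT4, 1 fell. Il18, a cytokine that epithelial cells store and release when inflammasomes are active, was at 106, 104 and 121 CPM in the Rag1-/- mice and 96.3, 90.4 and 115 CPM in the co-housed Tcra-/- mice. Il18 had 28.7, 19.8 and 30.6 CPM in the wild type mice and 24.1, 18 and 22.3 CPM in the separately housed Tcra-/- mice. The high and low sets did not overlap, and the changes were 2.07 ± 0.16 (adjusted p = 7.8e-07) in the Rag1-/- comparison and 2.23 ± 0.16 (adjusted p = 2e-07) in the housing comparison. Cxcl1 and Cxcl5, which attract neutrophils, also rose, but Cxcl1 was at 0.22 to 0.732 CPM in the 6 high mice and 0 to 0.179 CPM in the 6 low mice and its call was lost without any 1 of 8 mice in the Rag1-/- comparison (adjusted p up to 0.0413, without RAG1x3164) and 4 in the housing comparison (up to 0.0244, without TCRaSepxT4). Il15, which sustains intraepithelial lymphocytes, fell, with 8.82 to 10.6 CPM in the 6 high mice and 16.4 to 31.6 CPM in the 6 low mice (-0.74 and -1.66).

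Of the 12 largest shared falls, Slc2a2, Slc5a4a and Pck1 belong to sugar uptake and sugar metabolism. Of 26 tested genes of sugar, amino acid and peptide transport, 17 (65.4%) fell in both comparisons and 3 (11.5%) rose, with a median of -0.62 in the Rag1-/- comparison and -1.17 in the housing comparison, and the falls numbered 12 to 18 under the alternatives. Slc2a2 (mm9 chr3:28596825-28627282, plus strand), the basolateral glucose transporter GLUT2, was at 1.13, 1.18 and 1.52 CPM in the Rag1-/- mice and 2.43, 0.412 and 0.743 CPM in the co-housed Tcra-/- mice. Slc2a2 had 33, 26 and 24.8 CPM in the wild type mice and 26.1, 35.6 and 34.4 CPM in the separately housed Tcra-/- mice. Every high mouse was below every low mouse by a wide gap, with changes of -4.44 ± 0.42 (adjusted p = 3.1e-05) in the Rag1-/- comparison and -4.80 ± 0.43 (adjusted p = 1.1e-05) in the housing comparison. Slc5a4a, a glucose-sensing member of the sodium-glucose cotransporter family, was at 0.71, 0.521 and 0.896 CPM in the Rag1-/- mice and 1.31, 0.663 and 0.347 CPM in the co-housed Tcra-/- mice. Slc5a4a had 10.8, 15.3 and 14.2 CPM in the wild type mice and 18.9, 27.2 and 31.6 CPM in the separately housed Tcra-/- mice. The changes were -4.23 ± 0.34 (adjusted p = 2.1e-06) in the Rag1-/- comparison and -5.09 ± 0.35 (adjusted p = 2.1e-07) in the housing comparison. Slc5a1, the main apical glucose transporter SGLT1, changed by -0.54 and -0.46 on the log2 scale, and the sets overlapped. Its calls were lost without any 1 of 4 mice in the Rag1-/- and 5 in the housing comparison (adjusted p up to 0.0229, without RAG1x3163, and 0.0401, without TCRaCox3156).

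Enzymes of glucose synthesis and release were among these falls. Pck1, which starts gluconeogenesis, was at 4.9, 4.57 and 14.5 CPM in the Rag1-/- mice and 7.51, 4.02 and 5.55 CPM in the co-housed Tcra-/- mice. Pck1 had 111, 164 and 47 CPM in the wild type mice and 106, 208 and 294 CPM in the separately housed Tcra-/- mice. The changes were -3.74 ± 0.68 (adjusted p = 0.0032) in the Rag1-/- comparison and -5.16 ± 0.73 (adjusted p = 0.00039) in the housing comparison, and the Rag1-/- call was lost without RAG1x3163, RAG1x3164 or WTB6x3160 (adjusted p = 0.0169, 0.0161 and 0.0104). G6pc, the catalytic subunit of glucose 6-phosphatase, was at 2.1 to 6.74 CPM in the 6 high mice and 33.3 to 76.9 CPM in the 6 low mice (-2.87 and -4.18), and Fbp1, fructose bisphosphatase, at 2.48 to 3.76 CPM in the 6 high mice and 7.45 to 21.9 CPM in the 6 low mice (-1.46 and -2.90). The peptide transporter Slc15a1 was at 233 to 329.6 CPM in the 6 high mice and 495 to 977 CPM in the 6 low mice (-0.85 and -1.63). The amino acid transporter Slc6a14 rose from 8.29 to 67.7 CPM in the low mice to 152 to 289.9 CPM in the high mice (2.10 and 4.15). Fbp1, Slc15a1 and Slc6a14 were picked after their values were seen. Slc5a12, a sodium-coupled lactate transporter outside the list, was at 4.51 to 19.1 CPM in the 6 high mice and 112 to 222 CPM in the 6 low mice (-3.88 and -3.88).

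Of 21 brush border hydrolases tested, 9 (42.9%) fell in both comparisons and none rose in both, and 5 fell without RAG1x3163. Lct (mm9 chr1:130181341-130224895, minus strand), lactase, the enzyme that splits milk sugar and normally declines after weaning, was at 9.85, 19.4 and 11.9 CPM in the Rag1-/- mice and 28.1, 9.76 and 5.47 CPM in the co-housed Tcra-/- mice. Lct had 456, 413 and 299.6 CPM in the wild type mice and 639, 610.2 and 978 CPM in the separately housed Tcra-/- mice. The lowest low mouse was at 299.6 CPM and the highest high mouse at 28.1, and the changes were -4.83 ± 0.62 (adjusted p = 0.00045) in the Rag1-/- comparison and -5.70 ± 0.64 (adjusted p = 9.9e-05) in the housing comparison. The neutral endopeptidase Mme changed by -1.76 ± 0.35 and -2.12 ± 0.35 on the log2 scale, a Rag1-/- call that was lost without any 1 of the 6 mice of that comparison (adjusted p up to 0.0218, without RAG1x3168). Xpnpep2, an aminopeptidase, was at 275 to 394 CPM in the 6 high mice and 626 to 1046 CPM in the 6 low mice (-1.01 and -1.41). Sucrase-isomaltase, Sis, was at 771 to 1721 CPM in the 6 high mice and 2576 to 3918 CPM in the 6 low mice: it was called in the housing comparison (-1.33 ± 0.26 (adjusted p = 0.0017)) and not in the Rag1-/- comparison (-0.91 ± 0.26 (adjusted p = 0.022)), though the Rag1-/- change passed without TCRaCox3155 or TCRaCox3157 (adjusted p = 0.00932 and 0.000251). Dpp4 and Anpep, other abundant peptidases of this membrane, were not called in either, at 0.15 and -0.03 for Dpp4, and 0.23 and 0.15 for Anpep.

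Some genes of fat uptake fell as well. Of 31 lipid absorption genes tested, 13 (41.9%) fell and 1 rose in both comparisons, with 10 to 18 falls under the alternatives. Cd36, a fatty acid receptor and transporter, was at 9.26, 9.1 and 11.5 CPM in the Rag1-/- mice and 13.1, 13.1 and 11.6 CPM in the co-housed Tcra-/- mice. Cd36 had 27.9, 33.4 and 27.7 CPM in the wild type mice and 35.4, 40.5 and 42.2 CPM in the separately housed Tcra-/- mice. The high and low sets did not overlap and the changes were -1.57 ± 0.11 (adjusted p = 4.5e-08) in the Rag1-/- comparison and -1.65 ± 0.11 (adjusted p = 1.2e-08) in the housing comparison. Agpat3, which acylates lysophosphatidic acid in lipid synthesis, was at 15.1 to 20.3 CPM in the 6 high mice and 47.3 to 62.6 CPM in the 6 low mice (-1.81 and -1.36). Fabp1, a fatty acid binding protein, was at 6.98 to 16.1 CPM in the 6 high mice and 33 to 115 CPM in the 6 low mice (-1.97 and -3.03), and its Rag1-/- call was lost without any 1 of 5 mice (adjusted p up to 0.0179, without WTB6x3160). The gene that rose was Nfil3, a transcription factor of the epithelial clock, at 26.7 to 38.9 CPM in the 6 high mice and 13.7 to 19.9 CPM in the 6 low mice (0.74 and 0.93). The chylomicron genes Apob and Mttp and the acyltransferase Dgat1 were not called in both, with 0.20 and -0.44 for Apob, 0.22 and 0.05 for Mttp, and -0.28 and -0.33 for Dgat1.

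Angptl4, an inhibitor of lipoprotein lipase, was at 3.38, 4.31 and 5.87 CPM in the Rag1-/- mice and 7.03, 4.37 and 8.54 CPM in the co-housed Tcra-/- mice. Angptl4 had 47.3, 70.7 and 24.7 CPM in the wild type mice and 84.1, 89.4 and 116 CPM in the separately housed Tcra-/- mice. The changes were -3.39 ± 0.44 (adjusted p = 0.00041) in the Rag1-/- comparison and -3.87 ± 0.43 (adjusted p = 8.4e-05) in the housing comparison. It is in the list of fatty acid oxidation genes, of which 10 of 28 (35.7%) fell and 4 (14.3%) rose in both comparisons. The shares over all genes tested were 6.11% and 7.37%. The falls numbered 6 without RAG1x3163, and the rises 2 without TCRaCox3155, TCRaCox3157, TCRaSepxT3 or TCRaSepxT4. Acadl, the long-chain acyl-CoA dehydrogenase, rose, at 277, 295 and 307 CPM in the Rag1-/- mice and 291, 300.5 and 384 CPM in the co-housed Tcra-/- mice. Acadl had 79.5, 75.1 and 85.1 CPM in the wild type mice and 114, 111 and 110.0 CPM in the separately housed Tcra-/- mice. The high and low sets did not overlap, and the changes were 1.87 ± 0.09 (adjusted p = 1.5e-09) in the Rag1-/- comparison and 1.54 ± 0.09 (adjusted p = 3.8e-09) in the housing comparison. Ppara, the nuclear receptor that controls many of these genes, fell, with 24.3 to 29.2 CPM in the 6 high mice and 36.7 to 83.9 CPM in the 6 low mice (-0.62 and -1.59). Of 30 genes of fatty acid and cholesterol synthesis, 3 (10%) rose and 3 (10%) fell in both, beside 7.37% and 6.11% of all genes tested. Without RAG1x3168, 1 fell. Scd1, a desaturase, fell in the Rag1-/- comparison (-1.83 ± 0.24 (adjusted p = 0.00017)), with 0.25 ± 0.23 (adjusted p = 0.39) in the housing comparison, and the difference of -2.07 passed the test (adjusted p = 0.0012).

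Of 36 detoxifying and retinoid enzymes tested, 15 (41.7%) fell in both comparisons and 1 rose, with a median of -0.49 in the Rag1-/- comparison and -1.24 in the housing comparison, and 9 fell without RAG1x3163. Cyp3a11 (mm9 chr5:146666183-146691430, minus strand) was at 6.91, 21.7 and 13.3 CPM in the Rag1-/- mice and 20.7, 4.62 and 5.37 CPM in the co-housed Tcra-/- mice. Cyp3a11 had 269, 253 and 142 CPM in the wild type mice and 143, 132 and 158 CPM in the separately housed Tcra-/- mice. The changes were -3.99 ± 0.64 (adjusted p = 0.0017) in the Rag1-/- comparison and -3.84 ± 0.65 (adjusted p = 0.0012) in the housing comparison, and the housing call was lost when those 6 libraries were fitted alone (adjusted p = 0.0128). Cyp2d26, another cytochrome P450, was at 8.72, 14.7 and 12.4 CPM in the Rag1-/- mice and 15.5, 5.28 and 6.68 CPM in the co-housed Tcra-/- mice. Cyp2d26 had 110.1, 109.8 and 80.1 CPM in the wild type mice and 206, 210.0 and 260.2 CPM in the separately housed Tcra-/- mice. The sets did not overlap, and the changes were -3.06 ± 0.38 (adjusted p = 0.00034) in the Rag1-/- comparison and -4.64 ± 0.41 (adjusted p = 1.8e-05) in the housing comparison. Near-identical members of the Cyp2c, Cyp2d and Cyp3a families may share reads, and the sources used here do not say how the authors counted these. Rdh7, a retinol dehydrogenase, was at 0.842 to 5.05 CPM in the 6 high mice and 17.5 to 121 CPM in the 6 low mice (-3.00 and -5.56), and Lrat, which stores retinol as ester and was picked after its values were seen, at 8.48 to 12.5 CPM in the 6 high mice and 24.1 to 53.2 CPM in the 6 low mice (-1.34 and -2.31). Of 14 bile acid genes 3 (21.4%) fell in both, beside 6.11% of all genes tested. They were the export pumps Abcc2 (-1.45 and -3.36) and Abcb1a (-1.15 and -1.59) and the sterol hydroxylase Cyp27a1 (-1.21 and -2.40).

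**Figure D3:**
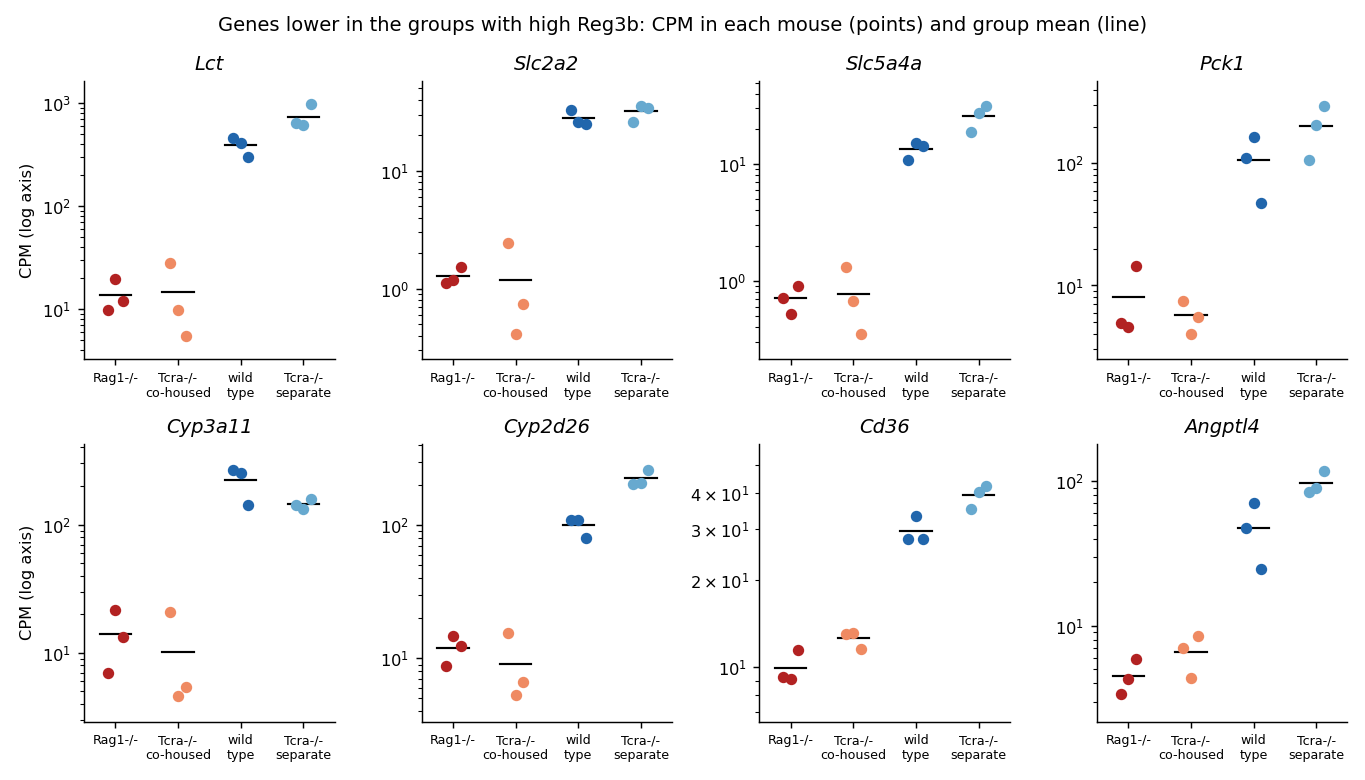
CPM on a log axis in each of the 12 mice (points) and the group mean (line) for 8 genes that were lower in the high groups. In each panel all 6 Rag1-/- and co-housed Tcra-/- mice lie below all 6 wild type and separately housed Tcra-/- mice, with Lct at 5.47 to 28.1 CPM in the 6 high mice and 299.6 to 978 CPM in the 6 low mice. For all of these genes but Cd36 this was a condition of their choice.

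The remaining genes among the 12 largest shared rises were low to moderate in level. Cfhr2, a complement factor H related protein, was at 4.28 to 18.4 CPM in the 6 high mice and 0 to 0.0894 CPM in the 6 low mice. In the housing comparison 731 reads stood against 1, a ratio of 824 with a counting interval of 147 to 32570. Ppef1, a protein phosphatase, was at 2.74 to 11.1 CPM in the 6 high mice and 0 to 0.134 CPM in the 6 low mice, and Serpina10, a secreted protease inhibitor, at 11.3 to 15.3 CPM in the 6 high mice and 0.262 to 0.997 CPM in the 6 low mice. The neighbours Gml and Hemt1 on chromosome 15 also rose, Gml at 9.99 to 31.9 CPM in the 6 high mice and 0 to 1.3 CPM in the 6 low mice, and Hemt1 at 4.53 to 19 CPM in the 6 high mice and 0 to 0.939 CPM in the 6 low mice. Trim10 was at 4.48 to 8.1 CPM in the 6 high mice and 0 to 0.427 CPM in the 6 low mice, and Cpn2, the regulatory subunit of carboxypeptidase N, at 2.72 to 6.27 CPM in the 6 high mice and 0.163 to 0.328 CPM in the 6 low mice. Among the falls, Leap2, a peptide that blocks the ghrelin receptor and has antimicrobial activity, was at 0.759, 1.73 and 1.62 CPM in the Rag1-/- mice and 2.57, 0.846 and 1.54 CPM in the co-housed Tcra-/- mice. Leap2 had 16.8, 15 and 11.4 CPM in the wild type mice and 18.3, 18.9 and 26.3 CPM in the separately housed Tcra-/- mice. The changes of Leap2 were -3.39 ± 0.36 (adjusted p = 2.6e-05) in the Rag1-/- comparison and -3.71 ± 0.36 (adjusted p = 5.9e-06) in the housing comparison. Acot12, an acetyl-CoA hydrolase whose exons overlap 4833422C13Rik, was at 0.686 to 2.43 CPM in the 6 high mice and 15.6 to 31.9 CPM in the 6 low mice, and Cyp2c66 at 0.0457 to 0.498 CPM in the 6 high mice and 1.23 to 5.77 CPM in the 6 low mice. Ankrd29 was also among the 12 largest falls (-3.15 and -3.25).

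Of 28 ion, water and iron transport genes tested, 5 (17.9%) fell and 2 (7.14%) rose in both comparisons. Over all genes tested 6.11% fell and 7.37% rose in both, so the share of rises was near that of all genes. The rises were Slc9a3 and Slc40a1. Slc9a3, the apical sodium-proton exchanger, was at 62.7 to 188 CPM in the 6 high mice and 22.6 to 38.4 CPM in the 6 low mice (1.96 and 1.62), and Slc40a1, the iron exporter ferroportin, at 173 to 311 CPM in the 6 high mice and 35.2 to 123 CPM in the 6 low mice (1.44 and 2.36). The water channels Aqp1 and Aqp3 fell. Aqp1 was at 63.1 to 103 CPM in the 6 high mice and 210.0 to 342 CPM in the 6 low mice, and Aqp3 at 0.474 to 1.19 CPM in the 6 high mice and 3.53 to 16.5 CPM in the 6 low mice. Of 31 junction and cytoskeleton genes, 6 (19.4%) fell and 3 (9.68%) rose in both. The falls were 3 without RAG1x3163, RAG1x3164 or WTB6x3160, and the rises were 1 without RAG1x3164, RAG1x3168, TCRaCox3155, TCRaSepxT2, TCRaSepxT3, WTB6x3159 or WTB6x3160. The falls included the claudins Cldn4, at 45.6 to 70.3 CPM in the 6 high mice and 103 to 155 CPM in the 6 low mice, and Cldn8, at 0.846 to 2.9 CPM in the 6 high mice and 5.01 to 12.2 CPM in the 6 low mice.

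Of 25 endoplasmic reticulum stress and chaperone genes, 8 (32%) rose and 1 (4%) fell in both, beside 7.37% and 6.11% of all genes tested. The list also holds heat shock genes such as Hspa1a and Hsp90aa1. The rises numbered 5 without RAG1x3168, 3 without WTB6x3159, 4 without WTB6x3160 and 3 when libraries were scaled by size alone. Asns, asparagine synthetase, was at 71.6 to 114 CPM in the 6 high mice and 22.5 to 31.6 CPM in the 6 low mice (1.65 and 1.74), and Xbp1, the factor of the unfolded protein response, at 389 to 506 CPM in the 6 high mice and 199 to 311 CPM in the 6 low mice (0.73 and 0.95). Trib3, a pseudokinase, fell (-1.54 and -2.17), a Rag1-/- call lost without any 1 of 7 mice (adjusted p up to 0.0264, without RAG1x3163). Of 28 mitochondrial respiratory chain genes 9 (32.1%, beside 7.37% of all genes tested) rose in both, by 0.25 to 0.37 in the Rag1-/- comparison. None did so when libraries were scaled by size alone, and 2 to 5 did so without RAG1x3163, RAG1x3164, WTB6x3159, WTB6x3160 or WTB6x3167 (2, 4, 4, 5 and 3).

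Markers of secretory and stem cells moved in both directions. The shares that fell in both were 25% of tuft, 22.2% of goblet, 15.8% of enteroendocrine, 8.33% of stem and progenitor and 4.76% of Paneth cell markers, beside 6.11% of all genes tested. Of 18 goblet cell markers 2 rose (Muc13 and Retnlb) and 4 fell, among them the lectin Zg16, at 2139.9 to 3045 CPM in the 6 high mice and 3463 to 4713 CPM in the 6 low mice (-0.80 and -0.69). Of 21 Paneth cell markers 1 rose (Pla2g2a, not called in both without any 1 of 9 mice, TCRaCox3156, TCRaSepxT2 and TCRaSepxT4 being the other 3) and 1 fell, and none of the 9 alpha-defensin genes tested was called. Of 16 tuft cell markers 4 fell and none rose: Dclk1 was at 8.3 to 9.46 CPM in the 6 high mice and 13.8 to 21.5 CPM in the 6 low mice (-0.74 and -1.08) and the channel Trpm5 at 4.92 to 8.15 CPM in the 6 high mice and 11.9 to 21.3 CPM in the 6 low mice (-0.95 and -1.55), and the count was 2 without RAG1x3164. Of 19 enteroendocrine markers 3 fell and 1 rose. The rise was Tac1, the precursor of substance P, at 31.5 to 68.9 CPM in the 6 high mice and 8.33 to 13.6 CPM in the 6 low mice (2.42 and 2.18), and the falls included Gip (-0.97 and -0.89); without TCRaCox3155 or TCRaCox3157 there were 5 and 6 falls. Of 24 stem and progenitor genes 3 rose and 2 fell, with 1 rise without RAG1x3163 or WTB6x3160 and 1 fall without RAG1x3163, RAG1x3164, TCRaCox3156, TCRaSepxT2, TCRaSepxT3, TCRaSepxT4 or WTB6x3159. The stem cell marker Lgr5 was not called in either comparison, at 9.71 to 13.3 CPM in the 6 high mice and 8.29 to 13 CPM in the 6 low mice.

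Markers of position along the gut and of the villus were mixed. The shares that fell in both were 35.7% of proximal, 25% of ileal and 30.8% of villus tip genes, beside 6.11% of all genes tested. The shares that rose in both were 42.9% of colon and 7.14% of proximal genes, beside 7.37% of all genes tested. Of 14 genes of the proximal small intestine 5 fell (Lct, Slc2a2, Fabp1, Cyp2b10 and Dpep1) and 1 rose; the falls were 3 without RAG1x3163 or RAG1x3168 and 8 without WTB6x3167. Of 12 ileal genes 3 fell, and 5 without TCRaCox3155: Cubn, the receptor for intrinsic factor and vitamin B12, was at 52.1 to 201 CPM in the 6 high mice and 792 to 2136 CPM in the 6 low mice (-2.67 and -3.78), a Rag1-/- call lost without RAG1x3163 (adjusted p = 0.011). Of 7 colon genes 3 rose, namely Saa1, the carbonic anhydrase Car4 (431 to 663 CPM in the 6 high mice and 63.1 to 128 CPM in the 6 low mice; 2.58 and 2.79) and the membrane mucin Muc4 (120.4 to 161 CPM in the 6 high mice and 12.6 to 42 CPM in the 6 low mice; 2.17 and 3.21), whose exons overlap Muc20. Saa1 is also on the STAT3 and acute phase list, and its Rag1-/- call was lost without WTB6x3159 or WTB6x3160. Of 13 villus tip genes 4 fell, and 2 without RAG1x3163, TCRaSepxT4, WTB6x3159 or WTB6x3160. Krt20, a keratin of mature enterocytes, was not called, at 2775 to 3326 CPM in the 6 high mice and 2411 to 2829 CPM in the 6 low mice. Of 32 transcription factors and nuclear receptors 3 rose and 3 fell, 9.38% each and near the shares of all genes tested, and 5 fell without RAG1x3168. Elf3, an epithelial ETS factor, was at 513 to 658 CPM in the 6 high mice and 254 to 365 CPM in the 6 low mice (0.87 and 1.03). Hnf4a was not called in either comparison (0.18 and 0.25), although its housing change passed without TCRaCox3157 or TCRaSepxT4 (adjusted p = 0.00523 and 0.00893). Gata4 passed the test in the housing comparison (-0.37 ± 0.10 (adjusted p = 0.0057), with -0.35 ± 0.10 (adjusted p = 0.013) in the Rag1-/- comparison), and not without TCRaCox3155, TCRaCox3156, TCRaSepxT2 or TCRaSepxT4 (adjusted p up to 0.0357); the Rag1-/- change of Gata4 passed without WTB6x3167 (adjusted p = 0.00675).

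**Figure D4:**
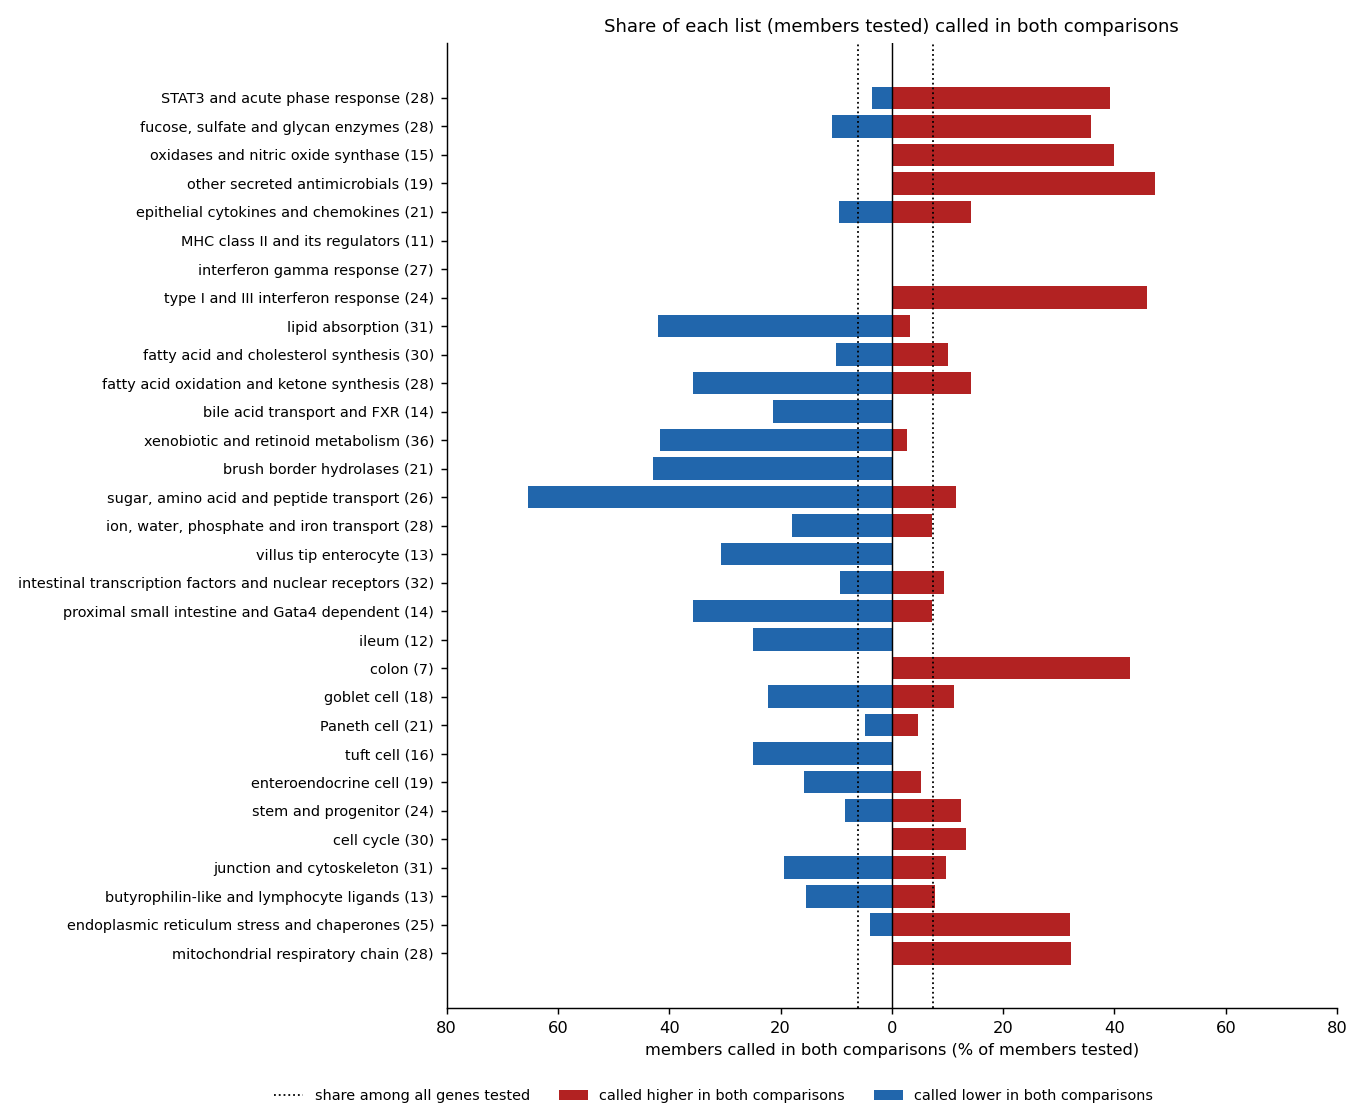
Share of the tested members of each epithelial list that was called higher (red, to the right) or lower (blue, to the left) in both comparisons, with the number tested in parentheses and dotted lines at the shares over all genes tested, 7.37% higher and 6.11% lower. The lists of STAT3 targets, glycan enzymes, oxidases, antimicrobials and type I interferon genes extend furthest to the right among lists of over 10 genes, and sugar and amino acid transport furthest to the left.

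No gene of the interferon gamma response or MHC class II lists was called in the same direction in both comparisons. All 27 interferon gamma response genes tested rose in the housing comparison, none rose in the Rag1-/- comparison and 2 fell there, and the list medians were -0.25 in the Rag1-/- comparison and 2.68 in the housing comparison. The difference between the comparisons passed the test for all 27 (12% of all genes tested did). Of MHC class II genes and their regulators, all 11 rose in the housing comparison and 7 fell in the Rag1-/- comparison, with medians of -0.78 in the Rag1-/- comparison and 2.72 in the housing comparison. H2-Ab1, picked after its values were seen, was at 477, 476 and 537 CPM in the Rag1-/- mice and 729, 679.9 and 485 CPM in the co-housed Tcra-/- mice. H2-Ab1 had 789, 1086 and 696 CPM in the wild type mice and 75.6, 80.9 and 71 CPM in the separately housed Tcra-/- mice. Its Rag1-/- call was lost without RAG1x3163 or RAG1x3164 (adjusted p = 0.0176 and 0.0165).

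Some genes of the type I and III interferon response rose in both. Of 24 tested, 11 (45.8%) were called in both and none fell in both, with medians of 0.96 in the Rag1-/- comparison and 2.38 in the housing comparison. The count depended on single mice: it was 17 without RAG1x3163, 5 without RAG1x3164, 6 without WTB6x3159 or WTB6x3160, 7 without WTB6x3167 and 3 when each comparison was fitted on its 6 libraries alone. Mx2, an interferon-induced GTPase, was at 13.2, 18 and 18.1 CPM in the Rag1-/- mice and 16.7, 22.6 and 13.4 CPM in the co-housed Tcra-/- mice. Mx2 had 2.43, 3.33 and 3.33 CPM in the wild type mice and 2.61, 2.12 and 1.97 CPM in the separately housed Tcra-/- mice. Its high and low sets did not overlap, its calls held without any 1 mouse, and the changes were 2.44 ± 0.20 (adjusted p = 3.7e-07) in the Rag1-/- comparison and 2.97 ± 0.21 (adjusted p = 3.2e-08) in the housing comparison. Oas2, which senses double-stranded RNA, was at 13.4, 30.8 and 42.6 CPM in the Rag1-/- mice and 28.8, 30.4 and 28.9 CPM in the co-housed Tcra-/- mice. Oas2 had 3.33, 3.42 and 4.81 CPM in the wild type mice and 2.3, 2.94 and 2.73 CPM in the separately housed Tcra-/- mice, with RAG1x3163 the lowest of the high mice. Cell cycle genes rose in the housing comparison (28 of 30), where 21.1% of all genes tested did. In the Rag1-/- comparison 4 of them (13.3% of 30) also rose, beside 7.37% of all genes tested called higher in both. That count was 2 without RAG1x3163 or WTB6x3159, 1 when libraries were scaled by size alone and 7 with DESeq2.

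Many markers of T and B cells differed between the high groups: 16 of 24 T cell and 16 of 18 B cell genes were called lower in Rag1-/- than in co-housed mice, where 2.55% of all genes tested were. The summed level of 24 T cell genes was 36.3 to 43.3 CPM in Rag1-/-, 68 to 125 in co-housed, 152 to 209 in wild type and 44.4 to 48.4 in separately housed mice. Of these genes 20 were called in opposite directions, lower in Rag1-/- than in wild type and higher in co-housed than in separately housed Tcra-/- mice. The summed level of 18 B cell genes was 38.6 to 43.8 CPM in Rag1-/-, 194 to 275 in co-housed, 266 to 323 in wild type and 93.3 to 159 in separately housed mice. Of 20 myeloid genes 17 rose in the housing comparison and 1 (5%) in both, beside 21.1% and 7.37% of all genes tested. Without TCRaSepxT2, 2 rose in both. Summed levels of the myeloid list were 340.1 to 387 CPM in Rag1-/-, 454 to 707 in co-housed, 435 to 522 in wild type and 238 to 304 in separately housed mice. The summed level of cytotoxic lymphocyte genes was 66.9 to 91.5 CPM in Rag1-/-, 74.3 to 185 in co-housed, 214 to 355 in wild type and 25.1 to 29.7 in separately housed mice, and 11 of 19 were called in opposite directions. Plasma cell genes summed to 640.1 to 690.4 CPM in Rag1-/-, 799 to 1025 in co-housed, 1740.3 to 2286 in wild type and 421 to 432 in separately housed mice, and 3 of 11 (Xbp1, Prdm1 and Fkbp11) rose in both, 4 were called in opposite directions, and 6 were lower in Rag1-/- than in wild type mice. Most of the Rag1-/- sum was Xbp1 (60228 reads) and Sdc1 (19757), so the sums do not rank the groups by plasma cells. Igj had 26 reads in Rag1-/-, 36299 in co-housed, 187500 in wild type and 2732 in separately housed mice. Single genes also made up most of the Rag1-/- sums of the B cell list (Blnk, 3884 reads) and the T cell list (Bcl11b, 2954 reads). Of 13 butyrophilin-like genes and lymphocyte ligands 1 (7.69%) rose and 2 (15.4%) fell in both, beside 7.37% and 6.11% of all genes tested. There 1 fell without any 1 of RAG1x3163, RAG1x3164, RAG1x3168, TCRaCox3156, TCRaCox3157, TCRaSepxT2, TCRaSepxT4, WTB6x3159 or WTB6x3160. Of 18 group 3 innate lymphoid cell genes 1 (5.56%) rose and 2 (11.1%) fell in both, beside 7.37% and 6.11% of all genes tested. The rise was Il22, and 1 fell without RAG1x3164, RAG1x3168, WTB6x3159 or WTB6x3160. Summed levels of this list were 121 to 133 CPM in Rag1-/-, 136 to 154 in co-housed, 181 to 191 in wild type and 185 to 199 in separately housed mice. Fibroblast, endothelial, smooth muscle, neuronal, adipocyte, mast cell and red blood cell lists held 1 rise (neuronal) and 3 falls (1 fibroblast, 2 adipocyte) in both in all. The neuronal rise was lost without TCRaCox3155, TCRaCox3157, TCRaSepxT2, TCRaSepxT3, TCRaSepxT4 or WTB6x3167, the fibroblast fall without RAG1x3163 or RAG1x3168, and 1 adipocyte fall without any 1 of 8 mice. Smooth muscle genes summed to 2895 to 3595 CPM in Rag1-/-, 2932 to 4586 in co-housed, 3203 to 3527 in wild type and 4558 to 4967 in separately housed mice, and 3 of 12 were called lower in the housing comparison. The part of these cells in the shared changes was not tested.

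**Figure D5:**
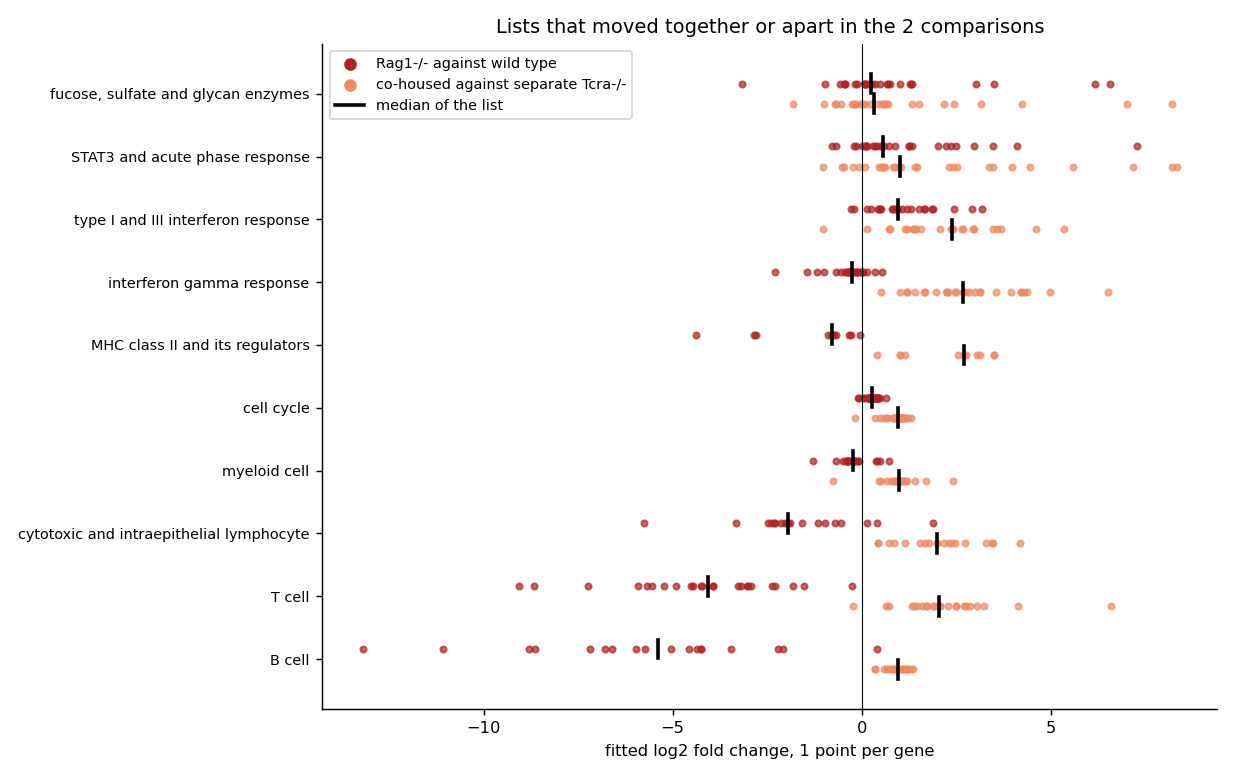
Fitted log2 fold change of each gene (points) of 10 lists, with the list median (bar), for Rag1-/- against wild type (dark) and co-housed against separately housed Tcra-/- (light). The upper 3 lists lie mostly to the right in both comparisons; interferon gamma, MHC class II, cytotoxic, T cell and B cell lists lie to the right in the housing comparison and to the left or near 0 in the Rag1-/- comparison. Fitted values of genes with 0 reads in a group are not bounds.

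Rag1-/- and co-housed Tcra-/- mice were compared directly, a test that the choice of the sets did not use. Of 15866 genes 459 (2.89%) were called, 54 higher (0.34%) and 405 lower (2.55%) in Rag1-/- mice. Of the 100 tested members of the T, B, plasma, cytotoxic and innate lymphoid cell and MHC class II lists, 49 were among the 405. The shared rises held 18 of the called genes and the shared falls 10. Without RAG1x3164 or TCRaCox3156 the total was 297 or 304. For the shared rises the median absolute log2 difference between the high groups was 0.10, and for the shared falls 0.13. These genes were picked for a call in the same direction in both comparisons, so the medians are shaped by that choice. Tac1 (0.67 ± 0.13 (adjusted p = 0.0052)) and Slc40a1 (0.55 ± 0.12 (adjusted p = 0.0091)) were shared rises that were higher still in Rag1-/- mice. For Fut2 the log2 difference was 0.52 ± 0.33 (adjusted p = 0.48), for B3galt5 0.39 ± 0.19 (adjusted p = 0.32), for Lct -0.06 ± 0.56 (adjusted p = 0.97) and for Slc2a2 0.16 ± 0.52 (adjusted p = 0.92); a p over the threshold does not show that the groups were alike.

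The low groups differed from each other in 2182 genes (13.8%), 1221 (7.7%) higher and 961 (6.06%) lower in wild type mice. Of the 1170 shared rises, 1016 had a higher mean in wild type than in separately housed Tcra-/- mice, and 221 of these differences were called; of the 970 shared falls, 846 had a lower mean in wild type, and 312 were called. By group means the order for most shared genes was the high groups at one end, wild type between and separately housed Tcra-/- mice at the other end. The change itself differed between the comparisons for 122 of the shared rises (10.4%) and 217 of the shared falls (22.4%), where 12% of all genes tested passed, 4.61% with a larger and 7.42% with a smaller value in the Rag1-/- comparison. In all 4 comparisons of a high with a low group, which share libraries, 965 of the rises (6.08% of all genes tested) and 824 of the falls (5.19%) were called. Rag1-/- against separately housed Tcra-/- mice gave 36.1% of genes called (18% higher, 18.1% lower), and co-housed Tcra-/- against wild type mice 18.5% (9.34% higher, 9.19% lower).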

How the data were processed

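RNA from the terminal ileum of 12 mice, 3 in each of 4 groups, was sequenced from stranded mRNA libraries. The deposited table holds read counts per gene, made by the authors with bcl2fastq, TopHat2 2.0.11, Bowtie2 2.2.2.0, featureCounts and Subread 1.4.5-p1 against mm9, per the submitters' processing notes, which also name DESeq2 1.12.3. The strand setting, the annotation and the handling of reads that map to several genes were not given in the sources used here. Each mouse was a replicate. Counts of 23284 genes, 3810 with no read, were filtered by edgeR's filterByExpr, which left 15866, scaled by trimmed mean of M-values (factors 0.926 to 1.07) and fitted with edgeR 4.0.16 (R 4.3.3, limma 3.58.1), robust quasi-likelihood, 1 mean per group and 8 residual degrees of freedom. A gene was called at a Benjamini-Hochberg adjusted p under 0.01 over all genes tested. Standard errors were derived from the F statistic. The contrast of high with low groups was used for description only. In data simulated from these libraries, with 200 genes changed in both comparisons and 50 of each size, 49 of 50 genes at a log2 change of -2, 41 at -1, 42 at 1 and 49 at 2 were called in both.

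Named genes are the 12 largest shared rises and falls (mean log2 CPM above 1, no overlap between sets, ranked by the smaller change), up to 4 per epithelial list, the 6 largest differences between comparisons in each direction, and a set of marker genes; others are said to be picked later. The sets and gene lists were chosen with earlier results of these data known. Alternatives were DESeq2 1.42.0, other scalings, filters and thresholds, separate fits and leaving out each mouse. Floors and the counting interval cover counting error only. Results of some genes are not reported here.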

Additional observations from a re-analysis of the deposited data

Results flagged for a closer look

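For each gene here the change in the Rag1-/- comparison differed from that in the housing comparison at an adjusted p under 0.01 in edgeR's quasi-likelihood test of the difference, and the value is the first log2 fold change minus the second. Among genes with a positive change in both comparisons the differences were B3galt5 -1.64, Trim10 -2.72, B3gnt7 -1.23, Elovl6 -0.50, Slc40a1 -0.92, Muc4 -1.04, Birc5 -0.74, Plk1 -0.67, Ccna2 -0.73, Slc6a14 -2.05 and Gmds -0.87. Among genes with a negative change in both they were Il15 0.92, Abcc2 1.91, Cyp27a1 1.2, Slc17a5 0.84, Ppara 0.97, Cldn8 1.62, Slc28a1 4.67, 1700011H14Rik 3.45, BC089597 3.37, Cpn1 3.32, Lrat 0.96, Fbp1 1.44 and Slc15a1 0.77, and a positive value means a larger fall in the housing comparison. For 2 genes of the stem and progenitor list they were Clu -2.94 and Ly6a -2.22. For immune, interferon and antimicrobial genes they were Ido1 -3.94, H2-Ab1 -3.84, Saa1 -5.84, Nos2 -2.52, Retnlb -4.33 and Ltf -2.76. For genes with changes of opposite sign they were Aldh1a7 2.82, Npl 2.75 and Scd1 -2.07. The genes of lymphocytes and Il22 had 0 or few reads in at least 1 group, so their fitted differences are not bounds: Igj -16.65, Faim3 -11.77, Cd3e -10.98, 2010001M09Rik -10.32, Ms4a1 -10.01 and Il22 -5.40. The 2 comparisons share no library, but they share the estimate of the spread.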

How the results depend on the processing

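The alternatives gave log2 fold changes of named genes (322 in most, 310 with the Reg genes left out of the scaling, 320 with a CPM above 1 in 3 libraries and 321 with the 6 libraries of each comparison fitted alone). None that was called, either with the settings above or in the alternative, changed direction. Changes of sign among results called in neither were not counted. Scaling by library size alone gave 560 shared rises and 1949 shared falls. The DESeq2 Wald test called 838 genes between the high groups. At an adjusted p under 0.05, 5009 genes were called in the Rag1-/- comparison, 909 between the high groups, 3314 for the difference of the comparisons, 1804 as shared rises and 1534 as shared falls. Leaving out 1 mouse gave 2434 to 3475 genes in the Rag1-/- comparison, 5002 to 6134 in the housing comparison, 1429 to 1941 for their difference, 297 to 569 between the high groups, 863 to 1154 shared rises and 670 to 983 shared falls. The cause of these shifts was not tested. Of 322 gene results, 31 lost their call without RAG1x3163 and 28 without WTB6x3160. No paired analysis was possible because each mouse has its own number and the labels tie no mouse of 1 group to a mouse of another. Genes with few reads in a group, such as Il22 and Retnlb, have folds limited by depth.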

Other observations

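Of the 54 genes higher in Rag1-/- than in co-housed Tcra-/- mice, 12 lie on chromosome 14 (2.27% of 529 tested there), all between positions 47395242 and 55507071 of mm9, and 10 on chromosome 2 (0.816% of 1225 tested). Over all genes tested 0.34% were higher, and 1 of the 54 lies on chromosome X. Of the 405 genes lower in Rag1-/- mice, 17 lie on chromosome 14 (3.21% of those tested there), 31 on chromosome 2 (2.53%) and 17 on chromosome X (3.28%), beside 2.55% over all genes tested. Only chromosomes 2, 14 and X were looked at, after the calls were seen, and no test was made. The other chromosomes were not counted, so these shares do not rank the chromosomes.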
